A study of Mus musculus with 48 samples.

Results

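The 9 genes described here encode the core histone acetyltransferases of the mouse: Crebbp, Ep300, Kat2a, Kat2b, Kat5, Kat6a, Kat6b, Kat7 and Kat8. They were taken as a gene family by symbol, not by a threshold on any value, out of 48709 genes in the count tables, and each symbol matched 1 Ensembl identifier. Histone acetyltransferases move the acetyl group of acetyl-CoA onto lysines of histone tails, which loosens chromatin and makes docking sites for bromodomain proteins. They fall into the CBP/p300 family (Crebbp, Ep300), the GNAT family (Kat2a, Kat2b) and the MYST family (Kat5, Kat6a, Kat6b, Kat7, Kat8). In the hippocampus their activity, opposed by histone deacetylases, is known for its part in the transcription that follows learning. The study asked how loss of Fmn2, an actin-nucleating formin, changes gene expression with age and in mice with amyloid deposition, and it treated mice with a histone deacetylase inhibitor, which is not covered by these count tables.

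RNA-seq of polyadenylated RNA covered 46 male C57BL/6J mice in 8 groups, with RNA taken from whole tissue, so that fewer cells of a type and less RNA per cell cannot be told apart. Constitutive Fmn2 knockouts (Fmn2-/-) and wild types (Fmn2+/+) were compared at 3 months (5 and 5 mice) and at 8 months (5 Fmn2-/- and 3 Fmn2+/+). A cross with APPPS1-21 mice, which carry human APP and presenilin 1 transgenes with familial mutations, gave 7 mice labelled FMN2-/-_APP and 9 labelled FMN2 +/+ APP, all 3 months old. A last set held 6 APP and 6 wild-type mice of 4 months. None of the groups used here received a drug according to the labels. The labels name mice but do not say whether they were littermates.

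Libraries that stand apart or go against their labels bear on what follows. Fmn2, in CPM (counts scaled to library size, normalized over all 46 mice), was 102.5 ± 7.35 (SD, n = 5) in Fmn2+/+ and 24.8 ± 2.39 (n = 5) in Fmn2-/- mice at 3 months, and 90.9 ± 15.2 (n = 3) and 24.3 ± 2.68 (n = 5) at 8 months. In the cross the order was turned: the mice labelled FMN2-/-_APP lay between 83.3 and 101.8 and those labelled FMN2 +/+ APP between 18.9 and 23.4. Every statement on the cross is therefore given by label, and its direction with respect to Fmn2 is the opposite of what the label says. The 4-month mice are labelled dentate gyrus and 4 months but have prefrontal cortex and 8mo in their titles, so that both tissue and age are uncertain, and 4 months stands for the label. The granule cell gene Dsp had a mean of 0.159 CPM in their APP group and 0.164 in their wild types, against 144.3 in Fmn2+/+ mice of 3 months, and Prox1 of 13.5 and 14.1 against 229.8. Total counts per mouse ran from 6818809 to 43921030, and both ends belong to Fmn2+/+ mice of 8 months (43921030, 6818809 and 8381078). The 5 Fmn2-/- libraries of that age held 9175551 to 11675280 counts. Of these, replicates 2 and 3 were the closest pair of the group, with a chi-square per degree of freedom of 1.62 where the most distant pair had 6.40. They are labelled as 2 mice and were counted as such, with values for their sum given where it matters.

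All 9 genes were expressed in every mouse, with counts of up to 722 for Kat2b, the lowest of them, and up to 4840 for Kat7, the highest. To compare genes with each other, CPM was divided by the length of the gene's exons in kilobases. On this scale Kat2a, the GCN5 acetyltransferase of the SAGA and ATAC complexes, had the highest median over all mice at 20 CPM per kb, followed by Kat7 (HBO1, which acetylates H3K14 and H4) at 17.3 and Kat5 (Tip60, the enzyme of the NuA4 complex) at 11.8. Kat6a (MOZ) and Kat8 (MOF, the H4K16 acetyltransferase) lay close together at 7.86 and 7.45 CPM per kb. The long genes of the CBP/p300 family lay at 5.49 (Ep300) and 5.36 (Crebbp), Kat6b (MORF) at 4.43, and Kat2b (PCAF), the paralog of Kat2a, was lowest at 2.93. Kat2a was thus higher than its paralog by several times in every mouse, since its lowest value was 16.4 CPM per kb and the highest of Kat2b was 4.45. Among all genes expressed in these samples the medians stood between the percentiles 49.5 (Kat2b) and 87.3 (Kat2a).

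**Figure D1:**
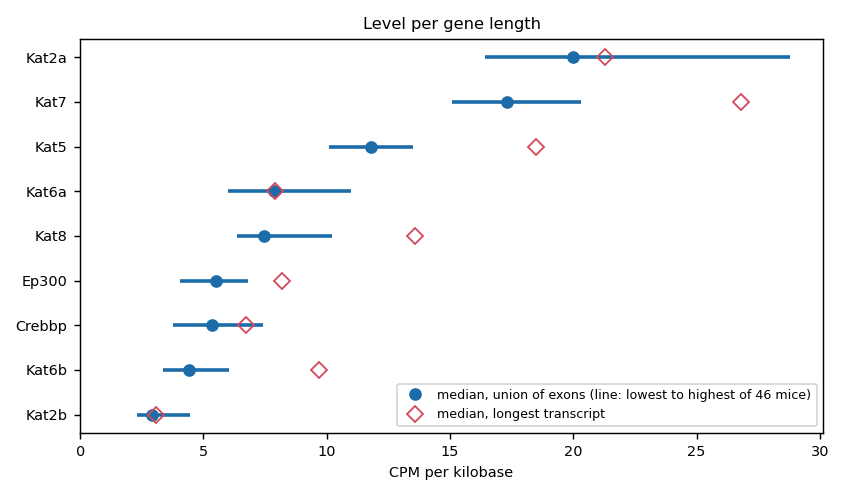
Level per gene length (CPM per kilobase, x axis) of the 9 genes over 46 mice; the point is the median with union exon length, the line runs from the lowest to the highest mouse, and the open diamond is the median with the longest transcript as length. Kat2a (20) and Kat7 (17.3) lead and Kat2b (2.93) is last, and Kat6b moves most in proportion with the length used, from 4.43 to 9.68.

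The order depends on which length is used. With the longest transcript in place of the union of exons Kat7 came first (26.8 CPM per kb) and Kat2a second (21.3), and Kat6b moved from the eighth to the fifth place, because its union of exons is 16826 bases and its longest transcript 7699. Kat2b stayed last at 3.06. By union exon length Kat2a led Kat7 in 7 of 8 groups, and in Fmn2-/- mice of 8 months Kat7 stood at 18.0 and Kat2a at 17.2 CPM per kb, a gap within their SDs, as it was in Fmn2+/+ mice of 8 months and in mice labelled FMN2 +/+ APP. By the same length Crebbp and Ep300 were within 1 SD of each other in all 8 groups. By the longest transcript Kat2a led Kat7 only in the 4-month groups (27.1 against 25.3 and 29.1 against 25.2 CPM per kb), and Ep300 stood above Crebbp in Fmn2+/+ mice of 3 months (9.14 against 7.11). Kat5 shares 12.1% of its exon bases with Rnaseh2c on the opposite strand, and Kat8 4.22% with Prss8. The library kit does not keep strand, so the gene of origin of reads on these bases is not known. The paper counted reads with HTSeq in its intersection-non-empty mode. Whether this lowered or raised the counts of Kat5 and Kat8 was not tested.

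The start regions of these genes differ in base composition, and those of 3 genes whose counts differed between groups are shown with the letters of motifs that bear on the study, which looked at SP and ETS motifs in promoters. The sequences are RefSeq entries of build GRCm38.p6, 250 bases before to 50 bases after the start, and 8 of the 9 genes have an entry in the table used. Capitals mark a GC box core bound by SP factors (CCGCCC), an ETS core (CCGGAA) or the core of a cAMP response element (TGACG), each on either strand, and no overlap between them was removed.
Kat8, chr7:127912267-127912566, plus strand: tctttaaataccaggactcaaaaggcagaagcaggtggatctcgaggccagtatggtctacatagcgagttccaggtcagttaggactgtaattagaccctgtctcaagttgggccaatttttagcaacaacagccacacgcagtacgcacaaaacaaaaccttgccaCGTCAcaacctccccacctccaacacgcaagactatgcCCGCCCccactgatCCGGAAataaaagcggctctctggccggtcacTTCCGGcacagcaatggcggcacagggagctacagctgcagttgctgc
Ep300, chr15:81585964-81586263, plus strand: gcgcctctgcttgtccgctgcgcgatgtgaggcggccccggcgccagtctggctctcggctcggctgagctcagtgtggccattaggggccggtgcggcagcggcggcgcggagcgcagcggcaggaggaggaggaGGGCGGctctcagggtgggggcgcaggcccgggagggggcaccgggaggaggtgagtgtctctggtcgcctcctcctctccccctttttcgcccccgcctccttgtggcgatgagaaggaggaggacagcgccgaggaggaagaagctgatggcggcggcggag
Kat2a, chr11:100712418-100712717, minus strand: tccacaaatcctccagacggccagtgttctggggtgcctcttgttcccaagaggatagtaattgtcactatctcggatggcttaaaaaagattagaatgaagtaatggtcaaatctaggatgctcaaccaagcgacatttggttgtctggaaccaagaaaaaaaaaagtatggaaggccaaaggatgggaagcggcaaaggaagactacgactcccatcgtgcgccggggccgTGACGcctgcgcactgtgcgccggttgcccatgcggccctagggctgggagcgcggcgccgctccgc

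The Kat8 window shown held all 3 words, with 2 ETS cores, 1 GC box core and 1 response element core. A second entry of Kat8 held 1 GC box core and neither of the other words. The Ep300 window, at 72.3% G and C, held 1 GC box core, and the Kat2a window, at 54.3%, held 1 response element core. Of 32851 promoters of the same length in the table, 35.7% held the GC box core, 14.9% the ETS core and 20.8% the response element core. Among the 8 genes with an entry, 5 had a window with the GC box core, 3 one with the ETS core (Kat5, Kat7 and Kat8) and 5 one with the response element core. These counts take a word in any window of a gene, and 4 of the 8 genes have 2 windows. They are therefore not on the same footing as the shares per promoter. Windows of Kat6b (79.3% G and C in the richer of 2) and Crebbp (82%) were among the richest of all promoters. These are matches of letters and say nothing of what binds there.

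Levels over the 8 groups are given next, by family, on the CPM scale within each gene. Crebbp (ENSMUSG00000022521, mm10 chromosome 16, 4081328 to 4213997, minus strand), the CREB-binding protein, was highest in wild-type mice of 4 months (89.9 ± 6.22, SD, n = 6) and the APP mice of that age (83.9 ± 5.58, n = 6), and lowest in the mice labelled FMN2 +/+ APP (59.4 ± 6.79, n = 9). The 4 groups of the Fmn2 and age comparisons lay between 68 and 76.9. Ep300 (ENSMUSG00000055024, chromosome 15, 81585351 to 81652077, plus strand), its paralog p300, ran from 88.4 ± 5.01 (n = 6) in the wild types of 4 months to 67.4 ± 9.43 (n = 3) in Fmn2+/+ mice of 8 months. Each of its 7 neighbouring pairs of groups in this order differed by less than the larger of their SDs.

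In the GNAT family Kat2a (ENSMUSG00000020918, chromosome 11, 100704746 to 100712465, minus strand) varied most between groups, by 0.67 on the log2 scale, and Kat2b (ENSMUSG00000000708, chromosome 17, 53566861 to 53672720, plus strand) by 0.22. Kat2a was 95.3 ± 3.69 (n = 6) and 88.5 ± 2.60 (n = 6) in wild-type and APP mice of 4 months, between 64.3 and 72 in 5 of the other groups, and 59.8 ± 3.45 (n = 5) in Fmn2-/- mice of 8 months. Both gaps at the top of this order and the gap at its foot were larger than the SDs. Kat2b lay between 13.7 and 16.0 in all groups, with every neighbouring pair within its SD.

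Of the MYST family, Kat6a (ENSMUSG00000031540, chromosome 8, 22859535 to 22943259, plus strand) ranged most, from 94 ± 6.34 (n = 5) in Fmn2+/+ mice of 3 months to 62.6 ± 4.45 (n = 6) in APP mice of 4 months. Kat6b (ENSMUSG00000021767, chromosome 14, 21481434 to 21672478, plus strand) went from 83.7 ± 3.08 (n = 5) in the same Fmn2+/+ mice to 67.5 ± 10.1 (n = 3) in those of 8 months. Kat5 (ENSMUSG00000024926, chromosome 19, 5603014 to 5610237, minus strand) lay between 46.4 ± 1.39 (n = 5) in Fmn2+/+ mice of 3 months and 38.2 ± 1.79 (n = 5) in Fmn2-/- mice of 8 months. Kat7 (ENSMUSG00000038909, chromosome 11, 95274259 to 95310246, minus strand) had the smallest range of group means of all 9 (0.18 on the log2 scale), from 89.8 ± 2.53 CPM (n = 6) in wild types of 4 months to its highest level in mice labelled FMN2-/-_APP, which lay between 92.8 and 108.5. Kat8 (ENSMUSG00000030801, chromosome 7, 127912516 to 127925837, plus strand) was highest in mice labelled FMN2-/-_APP (25.6 ± 1.83, n = 7) and in Fmn2+/+ mice of 8 months (25 ± 2.20, n = 3), and lowest in both 4-month groups (20.1).

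**Figure D2:**
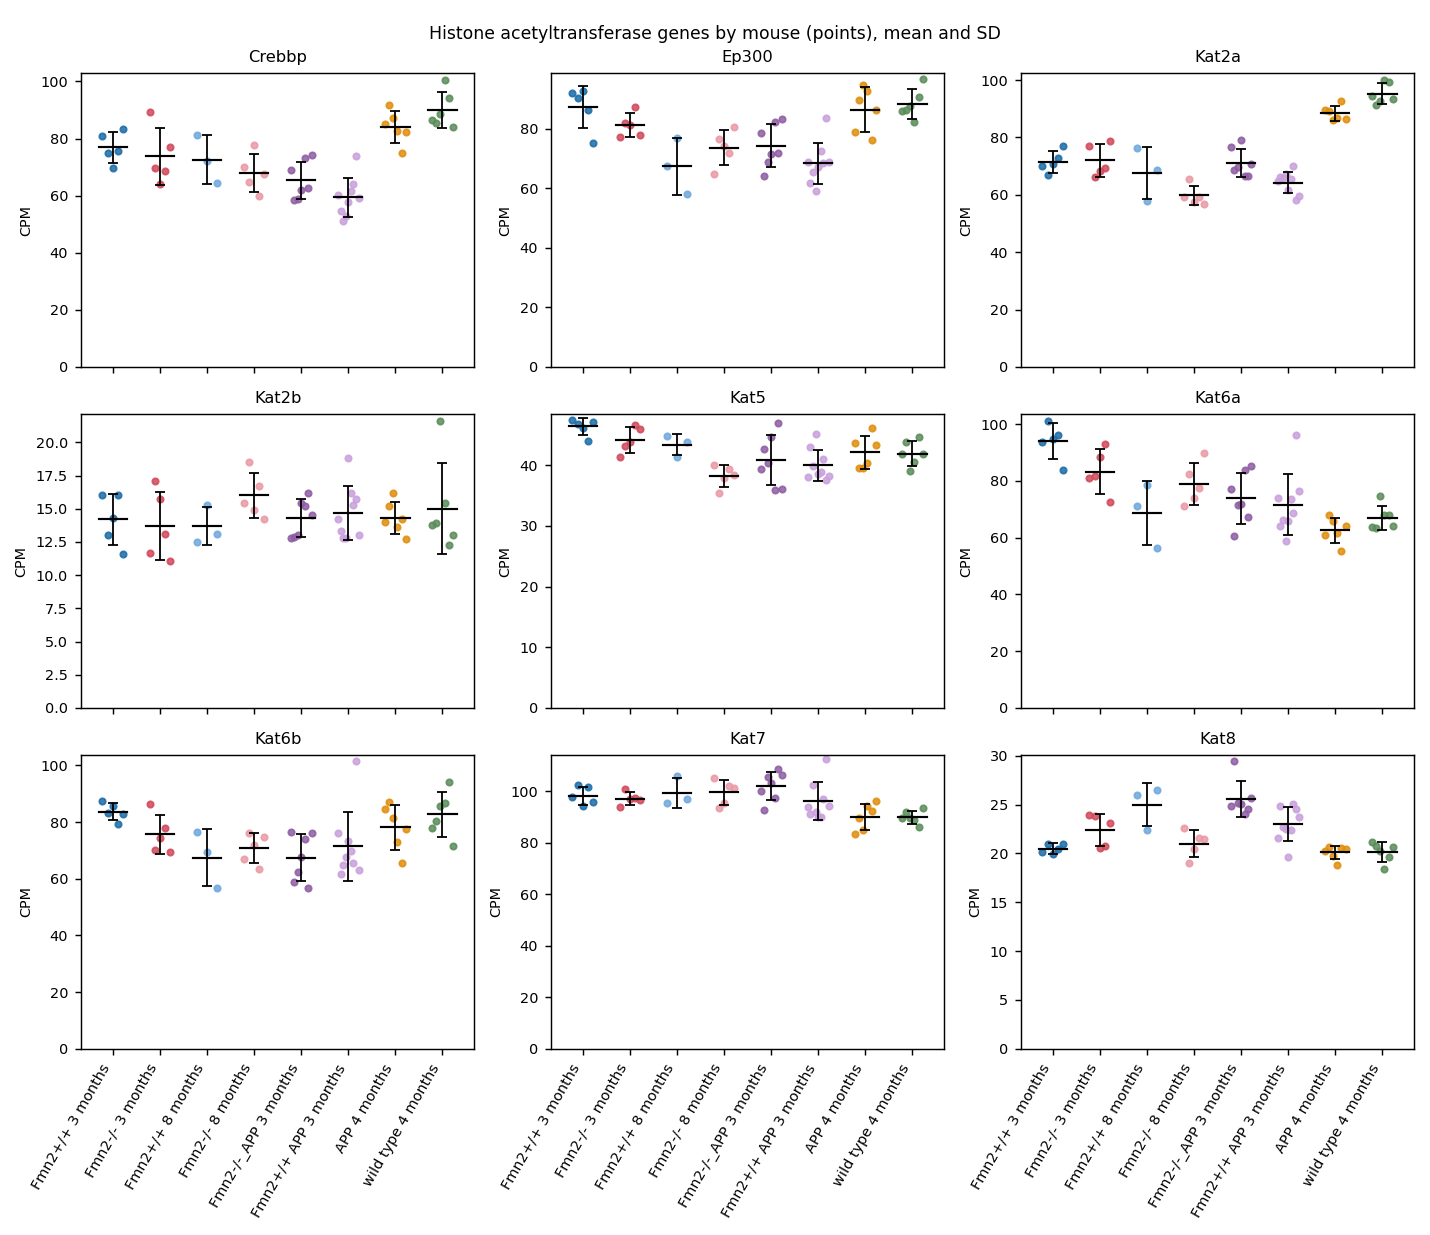
Normalized expression (CPM, y axis from 0) of the 9 genes, 1 panel each, in 46 mice by group; points are mice, and the black bar and whiskers give mean and SD. Kat2a stands highest in both 4-month groups (88.5 and 95.3), Kat6a in Fmn2+/+ mice of 3 months (94), and the group means of Kat7 differ by 0.18 on the log2 scale at most.

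Over the 8 group means (log2 CPM), the genes moved in different ways. Ep300 and Kat6b were most alike (Pearson r = 0.910), followed by Crebbp and Kat2a (0.852), and Kat6b and Kat8 ran most against each other (-0.850). These 8 points share libraries, and genes of like length or base composition share the shifts described below, so the values are a description. Genes outside the family with the most similar pattern were Elk4 for Crebbp (r = 0.992), Trio for Ep300 (0.989), Safb for Kat2a (0.995) and Naf1 for Kat2b (0.927). For the MYST family they were Pigu for Kat5 (0.979), Eif3a for Kat6a (0.984), Kmt2e for Kat6b (0.974), Cd38 for Kat7 (0.981) and Ilkap for Kat8 (0.978). Each is the highest r of 9935 to 11730 candidates over 8 points, so high values can come from the search alone. A high r also does not mean a like range: Cd38 ranged over 1.16 on the log2 scale and Kat7 over 0.18. Among 9935 candidate genes, 352 had an r above 0.95 with Kat2a, and of 11721 none had with Kat2b.

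Loss of Fmn2 at 3 months was compared first. None of the 9 acetyltransferase genes was called, where a call needs an adjusted p under 0.05 in edgeR's quasi-likelihood test (Benjamini-Hochberg, over all genes tested) and a log2 fold change of at least 0.25 in size. Over all genes 0.0301% were called in this comparison. At an unadjusted p under 0.05 there were 2 members, Kat6a and Kat6b, as there were 1750 of 16630 genes, and DESeq2 called 0 members. Kat6a was at 93.7, 101.2, 94.8, 96.3 and 83.9 CPM in the Fmn2+/+ mice and at 80.9, 81.7, 88.3, 92.9 and 72.5 in the Fmn2-/- mice. The Fmn2-/- mice tended to the lower end but the ranges overlapped, and the log2 fold change was -0.18 (95% interval -0.33 to -0.032, adjusted p = 0.396, edgeR). Kat6b stood at 83.7 ± 3.08 and 75.7 ± 6.95 (n = 5 each), a log2 fold change of -0.15 (-0.28 to -0.014, adjusted p = 0.437, edgeR). The members' median log2 fold change was -0.065, that of all genes 0.0041, and the intervals of the 9 together reached from -0.34 to 0.27. No gene of the 8 other lists was called at 3 months by edgeR or DESeq2, and each had at most 2 at an unadjusted p under 0.05. These lists hold further acetyltransferases, the subunits of the SAGA and ATAC, NuA4, MOZ/MORF and HBO1, and MSL and NSL complexes, partners of CBP and p300, the BET readers of acetyl-lysine, and enzymes of acetyl-CoA supply. Lane 5 carried the 5 Fmn2+/+ mice with 1 Fmn2-/- mouse and lane 6 carried the remaining 4 Fmn2-/- mice, so that genotype and lane can hardly be told apart. In Fmn2-/- replicate 4 the summed choroid plexus markers were 4128.7 CPM. They were 34.7 to 67.4 in the other Fmn2-/- mice and 23.2 to 64.1 in the Fmn2+/+ mice, and their part in the members' values was not tested.

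At 8 months none of the 9 was called either, against 1.13% of all genes. Kat5 and Kat8 had an unadjusted p under 0.05, as did 3419 of 14665 genes, and DESeq2 called 0 members. Kat8 was at 26, 22.4 and 26.5 CPM in the Fmn2+/+ mice and at 22.6, 19.0, 20.5, 21.6 and 21.5 in the Fmn2-/- mice. The ranges overlapped by 1 mouse on each side, and the log2 fold change was -0.25 (-0.44 to -0.052, adjusted p = 0.138, edgeR). Kat5 was at 44.8, 41.4 and 43.9 against 40.1, 35.4, 37.9, 39.4 and 38.4 CPM. Here the groups did not overlap, with a log2 fold change of -0.18 (-0.33 to -0.027, adjusted p = 0.159, edgeR). How many of all genes lacked overlap was not counted, here or in the comparisons below, so a lack of overlap is only a description. Kat2b had the largest positive value (0.25, -0.00092 to 0.51, adjusted p = 0.216, edgeR) and 5 of the 9 were higher in Fmn2-/- mice. With the shallowest library, Fmn2+/+ replicate 2, left out, Kat8 (-0.30, adjusted p = 0.0288, edgeR) and Kat2a (-0.27, adjusted p = 0.0185, edgeR) were called. The background moved as well: of 166 calls over all genes there were 3087 in that fit, but 4 without Fmn2+/+ replicate 1, 160 without replicate 3, 4 to 10 without any 1 of the Fmn2-/- mice, and 5 with replicates 2 and 3 of the latter summed. The summed levels of 6 astrocyte markers did not overlap (1648.3 to 1832.9 CPM in Fmn2+/+ and 1930.7 to 2206.4 in Fmn2-/- mice), 1 of them was called higher and 1 of 8 granule cell markers lower, and their part in the members' values was not tested. Over all genes the log2 fold change with genotype went with GC content (Spearman rho = 0.328 at 3 months and -0.444 at 8 months) and with exon length (-0.218 and 0.354). With both corrected, Kat8 was at -0.19 (adjusted p = 0.239, edgeR) and Kat5 at -0.096 (adjusted p = 0.492, edgeR) at 8 months.

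Of the other lists edgeR called 1 gene at 8 months, Vps72, a histone H2A.Z chaperone shared by the Tip60 complex, among 17 NuA4 genes. DESeq2 called 1 gene in NuA4 and 1 of the further acetyltransferases. The level of Vps72 was 19.0 ± 1.36 CPM (n = 5) without Fmn2 and 25.6 ± 1.08 (n = 3) in the wild types, with no overlap. Vps72 thus fell by 0.42 on the log2 scale (SE 0.0868, adjusted p = 0.0454, edgeR). The call was lost with replicates 2 and 3 summed (-0.43, adjusted p = 0.108, edgeR), with lane as covariate (-0.40, adjusted p = 0.324, edgeR), and in 7 of 8 fits without 1 mouse, all but the one without Fmn2+/+ replicate 2 (adjusted p from 0.00614 to 0.325, edgeR).

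The test of whether the genotype difference itself changed with age called 1 of 9, Kat8, against 3.73% of all genes. That background of 635 calls ran from 8 without replicate 1 of the older Fmn2+/+ mice to 2791 without replicate 2. Kat8 was at 20.5 ± 0.517 (n = 5) at 3 months and at 25 ± 2.20 CPM (n = 3) at 8 months in Fmn2+/+ mice, and at 22.4 ± 1.63 and 21.0 ± 1.37 (n = 5 each) in Fmn2-/- mice. The difference of differences was -0.39 on the log2 scale (-0.60 to -0.17, adjusted p = 0.0448, edgeR). This call sat at the threshold: it was lost with correction for length and GC content (-0.28, adjusted p = 0.174, edgeR), with replicates 2 and 3 of the Fmn2-/- mice summed (0 members called), and in 15 of 18 fits without 1 mouse, the adjusted p over all 18 running from 0.00893 to 0.179. It held without replicate 4 or 5 of the younger Fmn2-/- mice or replicate 2 of the older Fmn2+/+ mice, and that last fit also called Ep300 and Kat6a. Replicate 4 of the younger Fmn2-/- mice is the one with summed choroid plexus markers of 4128.7 CPM. Kat6a leaned the other way (0.38, 0.11 to 0.65, adjusted p = 0.0948, edgeR) and was called by DESeq2 (0.39, adjusted p = 0.0452), together with Kat8 (-0.38, adjusted p = 0.0147, DESeq2). Vps72 was the 1 gene of the other lists called by edgeR (-0.57, SE 0.132, adjusted p = 0.0267, edgeR). It stayed called in 11 of 18 fits without 1 mouse but not with lane as covariate (-0.53, adjusted p = 0.137, edgeR). DESeq2 called more genes of these lists: 4 in NuA4, 2 in SAGA and ATAC and 2 further acetyltransferases. It also called 1 each in MOZ/MORF and HBO1, in MSL and NSL, among partners of CBP and p300 and in acetyl-CoA supply.

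**Figure D3:**
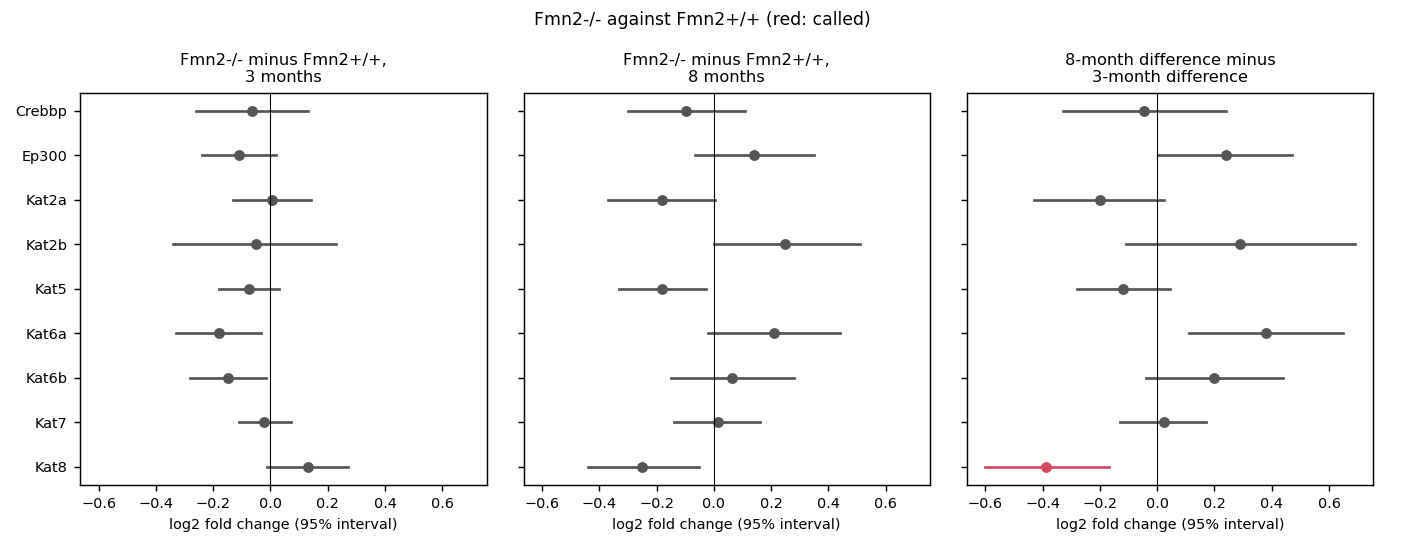
Log2 fold changes of the 9 genes with 95% intervals (x axis) for Fmn2-/- minus Fmn2+/+ at 3 and at 8 months and for the difference between both ages. Only Kat8 in the right panel (-0.39) is called, and Kat6a there (0.38) lies as far on the other side with a wider interval.

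Age was compared within each genotype. In Fmn2+/+ mice 3 of 9 members were called between 3 and 8 months, 2 lower and 1 higher, while 5.98% of all genes were. Kat6a fell from 93.7, 101.2, 94.8, 96.3 and 83.9 CPM at 3 months to 71.2, 78.7 and 56.4 at 8 months. All older mice were below all younger ones, and the log2 fold change was -0.44 (-0.66 to -0.23, adjusted p = 0.0299, edgeR). Ep300 fell from 92.2, 90.4, 92.8, 86.4 and 75.3 to 67.4, 76.8 and 58 CPM. Here 1 older mouse lay above the lowest younger one (-0.37, -0.58 to -0.16, adjusted p = 0.0488, edgeR). Kat8 rose from 20.1, 21.0, 19.9, 20.4 and 21.0 to 26, 22.4 and 26.5 CPM, with no overlap (0.30, 0.13 to 0.47, adjusted p = 0.0470, edgeR). Kat6b was at 76.5, 69.4 and 56.6 CPM in the older mice against 79.2 or more in the younger, and did not pass (-0.29, -0.48 to -0.11, adjusted p = 0.0634, edgeR). DESeq2 called all 4 of these genes.

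The calls with age in Fmn2+/+ mice rest on 3 older libraries of very unequal depth. All younger mice were on lane 5 and all older ones on lane 6 or 7, so age and lane cannot be told apart here. Without replicate 1, the deep library on lane 6, or replicate 3, 0 members were called, and without the shallow replicate 2 there were 4. Leaving out replicate 1, 2, 3 or 4 of the younger mice also ended all calls, and without replicate 5 Ep300 and Kat6a held. Long genes were lower and GC-rich genes higher in the older mice (rho = -0.367 with exon length and 0.258 with GC content over all genes). Ep300 and Kat6b have the longest exons of the 9 (14273 and 16826 bases), and Kat8 the shortest (2891). Crebbp, with 13540 bases, was not called (76.9 CPM at 3 and 72.6 at 8 months), and Kat6a has 9180. Whether exon length is a cause of the calls was not tested. After correction for length and GC content 1 call was left, Kat6a (-0.31, adjusted p = 0.0448, edgeR), while Ep300 was at -0.22 (adjusted p = 0.129, edgeR) and Kat8 at 0.23 (adjusted p = 0.0729, edgeR). The summed level of the 8 granule cell markers was 886.6 to 1013.6 CPM at 8 months and 827.0 to 1024.7 at 3 months. That of the 5 choroid plexus markers, of which 1 was called higher, was 73.8 to 221.1 and 23.2 to 64.1, and its part in the result was not tested.

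Of genes that work with these enzymes, Ncoa3, a nuclear receptor coactivator with reported acetyltransferase activity, fell with age in Fmn2+/+ mice (35.3 ± 1.26 to 28.5 ± 1.61 CPM, -0.30, adjusted p = 0.0298, edgeR), as 1 of 11 further acetyltransferases. Brpf3, a scaffold of the HBO1 complex, fell by 0.29 on the log2 scale (adjusted p = 0.0329, edgeR), 1 of 9 in its list. The BET reader Brd2 fell by 0.28 (adjusted p = 0.0221, edgeR), 1 of 3. Without 1 mouse, Ncoa3 was called in 2, Brpf3 in 1 and Brd2 in 4 of 8 fits, each of them in the fit without replicate 2 of the older mice. With length and GC content corrected Brd2 held (-0.25, adjusted p = 0.0404, edgeR), and Ncoa3 (-0.20, adjusted p = 0.0882, edgeR) and Brpf3 (-0.24, adjusted p = 0.0628, edgeR) did not. Of the 11 further acetyltransferases 8 had an unadjusted p under 0.05 (edgeR), and DESeq2 called 4. Their median log2 fold change was -0.22, against 0.015 for all genes. In the list of Brpf3 3 of 9 genes had such a p, and among the BET readers 2 of 3. DESeq2 called 2 genes in each of these 2 lists. The other 5 lists had no call by edgeR, with 1 to 4 genes each at an unadjusted p under 0.05, and DESeq2 called 2 in NuA4 and 2 in MSL and NSL.

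In Fmn2-/- mice age gave 1 call of 9, against 6.36% of all genes. Kat2a fell from 77.1, 66.2, 68.3, 69.5 and 78.8 CPM at 3 months to 59.4, 65.6, 57.5, 59.4 and 56.9 at 8 months, with the highest older mouse just under the lowest younger one. The log2 fold change was -0.26 (-0.40 to -0.12, adjusted p = 0.0259, edgeR). Kat5 fell by 0.20 (-0.32 to -0.080, adjusted p = 0.0424, edgeR), also without overlap (41.3 to 46.7 against 35.4 to 40.1 CPM), which is under the fold minimum. Ep300 had an unadjusted p under 0.05 as well (-0.13, adjusted p = 0.216, edgeR). Kat6a and Kat8, called in Fmn2+/+ mice, were at -0.068 (-0.23 to 0.098) and -0.085 (-0.25 to 0.076) here. The call of Kat2a was lost with correction for length and GC content (-0.14, adjusted p = 0.210, edgeR), held with replicates 2 and 3 summed, and was lost in 6 of 10 fits without 1 mouse (adjusted p up to 0.0745, edgeR). These left out replicate 1 or 6 of the younger or replicate 1, 3, 4 or 5 of the older mice. All 8-month Fmn2-/- mice were on lane 7 and none of the younger were, so here too age and lane cannot be told apart. Of the cell type markers 1 granule cell gene, 1 astrocyte gene and 1 interneuron gene were called higher and 1 cortical and 1 interneuron gene lower. Replicate 4 of the younger mice had summed choroid plexus markers of 4128.7 CPM against 34.7 to 67.4 in the other 4. Kat2a was still called without that mouse, and the part of the other markers was not tested.

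Genes of the complexes were called with age in Fmn2-/- mice as well, all of those named here lower. Vps72 fell from 25.5 ± 2.65 to 19.0 ± 1.36 CPM (n = 5 each, -0.41, adjusted p = 0.0120, edgeR), without overlap. Brpf3 (-0.28, adjusted p = 0.0120, edgeR) and Taf12, a histone-fold subunit shared by SAGA and TFIID (-0.33, adjusted p = 0.0401, edgeR), fell too. Without 1 mouse Vps72 and Brpf3 were called in 10 of 10 fits and Taf12 in 4. With length and GC content corrected Vps72 held (-0.46, adjusted p = 0.0147, edgeR), and Brpf3 (-0.18, adjusted p = 0.102, edgeR) and Taf12 (-0.33, adjusted p = 0.0708, edgeR) did not. The 2 age comparisons share no mice with each other, but each shares its mice with the genotype comparisons.

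**Figure D4:**
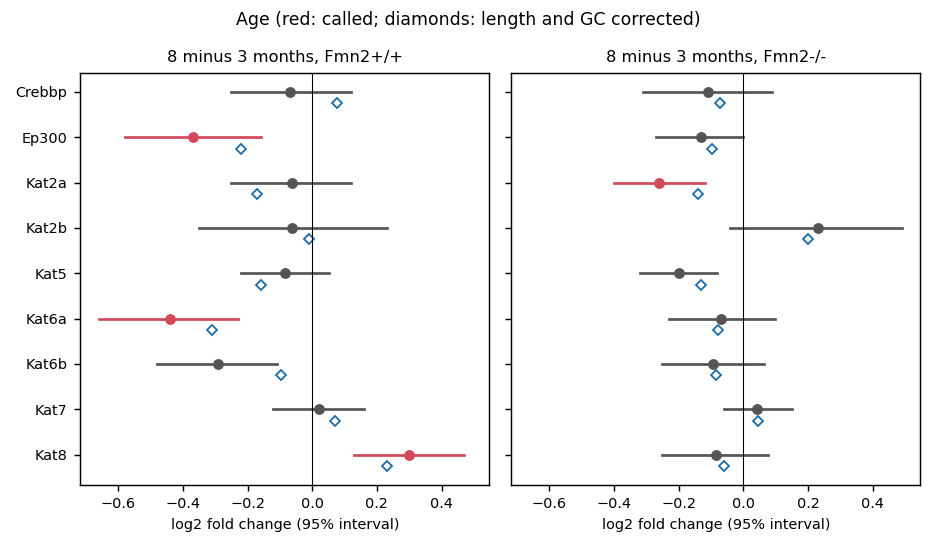
Log2 fold changes from 3 to 8 months (x axis, points with 95% intervals, red where called) in Fmn2+/+ and Fmn2-/- mice; open diamonds give the value after correction for exon length and GC content. Kat6a (-0.44) and Ep300 (-0.37) fell and Kat8 (0.30) rose in Fmn2+/+ mice, and Kat2a (-0.26) fell in Fmn2-/- mice.

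Within the cross, mice labelled FMN2-/-_APP and FMN2 +/+ APP were compared, with a fold minimum of 0.5 on the log2 scale in the APP comparisons. None of the 9 was called, by edgeR or by DESeq2, while 0.774% of all genes were. By label, 7 of the 9 were higher in FMN2-/-_APP mice, which are those with high Fmn2, and their median log2 fold change was 0.088 against 0.0057 for all genes. At an unadjusted p under 0.05 were Kat2a (lowest, median and highest mouse at 66.4, 69.6 and 79.1 against 58.3, 65.4 and 69.9 CPM) and Kat8 (24, 25.1 and 29.5 against 19.6, 22.7 and 25.1). Both pairs of ranges overlapped. The log2 fold changes were 0.14 (0.040 to 0.25, adjusted p = 0.151, edgeR) for Kat2a and 0.15 (0.024 to 0.28, adjusted p = 0.218, edgeR) for Kat8. All 9 intervals lay between -0.29 and 0.30, inside the fold minimum. No gene of the 8 other lists was called by edgeR or DESeq2, with at most 2 in a list at an unadjusted p under 0.05.

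APP mice of 4 months were compared with wild types of that age. Again none of the 9 was called by either tool, and 2.34% of all genes were. Kat2a was the 1 member with an unadjusted p under 0.05, at 86.2 to 92.8 CPM (median 88.0) in APP and 91.3 to 100.2 (median 93.9) in wild-type mice, with overlap (-0.096, -0.18 to -0.015, adjusted p = 0.240, edgeR). The 9 log2 fold changes lay between -0.096 and 0.015, and their intervals between -0.30 and 0.19. In the same comparison 5 of 6 microglial markers were called higher, with sums of 364.5 to 460.1 CPM in APP and 238.6 to 256.5 in wild-type mice, and their part in the members' values was not tested. Of the other lists no gene was called by either tool, with at most 3 in a list at an unadjusted p under 0.05. All APP mice were on lane 7 and all wild types on lane 5, so genotype and lane cannot be told apart.

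The wild-type mice of 4 months, with prefrontal cortex in their titles, were set against Fmn2+/+ mice of 3 months. Both carry lane number 5, which does not show that they shared a run. Tissue, age, experiment and run cannot be told apart in this comparison. These groups differ in age by label and in tissue by markers: 6 of 8 granule cell markers were called lower (sums of 269.3 to 342.5 against 827.0 to 1024.7 CPM) and 7 of 8 cortical layer markers higher (674.3 to 716.2 against 266.3 to 412.6). Over all genes 64.7% were called, 5344 higher and 5435 lower. Of the 9 acetyltransferase genes 2 were called, well under that share, and without a fold minimum 5 passed, where 12447 of 16661 genes did. Kat6a was lower, at 63.5 to 74.7 CPM (median 66, n = 6) against 83.9 to 101.2 (median 94.8, n = 5), with a log2 fold change of -0.54 (-0.66 to -0.42, adjusted p = 5.53e-07, edgeR). Kat2a was higher, at 91.3 to 100.2 (median 93.9) against 66.9 to 76.9 (median 70.8), a log2 fold change of 0.36 (0.27 to 0.46, adjusted p = 3.32e-06, edgeR). Neither pair of groups overlapped.

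Both calls held without any 1 mouse, but they parted under correction for length and GC content. Kat6a was then at -0.53 (adjusted p = 2.30e-07, edgeR), whereas Kat2a, whose longest transcript has 57.4% G and C, the most of the 9, came to -0.057 (adjusted p = 0.219, edgeR), so that its direction turned. GC content and the log2 fold change had a rho of 0.291 over all genes in this comparison. Crebbp (0.18, adjusted p = 0.0140), Kat5 (-0.19, adjusted p = 8.80e-04) and Kat7 (-0.18, adjusted p = 4.37e-04, all edgeR) passed the test under the fold minimum. With the correction Crebbp was at 0.025 (adjusted p = 0.709, edgeR) and Kat5 at -0.48 (adjusted p = 1.29e-07, edgeR). Ep300, Kat2b, Kat6b and Kat8 had intervals that reached over 0, the widest for Kat2b (-0.26 to 0.33).

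Other genes of the acetylation machinery differed in both directions in this comparison. In SAGA and ATAC, 4 of 21 tested subunits were higher and 8 lower, with Atxn7l3 of the deubiquitinase module at 310.1 ± 6.67 against 162 ± 8.33 CPM (0.89, adjusted p = 6.30e-11, edgeR) and its module partner Eny2 at 59.6 ± 2.04 against 89.1 ± 2.71 (-0.63, adjusted p = 9.12e-10, edgeR). Dr1 of ATAC was lower as well (-0.79, adjusted p = 5.82e-09, edgeR). In NuA4, 2 of 17 were higher and 6 lower, led by Epc2 (-0.82, adjusted p = 1.88e-09, edgeR), Ing3 (-0.77, adjusted p = 5.05e-09, edgeR) and Yeats4 (-0.69, adjusted p = 1.36e-08, edgeR). The complexes of Kat6a, Kat6b and Kat7 had 4 of 9 subunits higher and none called lower, among them Ing4 (2.17, from 0.644 ± 0.0758 to 3.04 ± 0.732 CPM, adjusted p = 1.30e-07, edgeR), Jade2 (0.78, adjusted p = 1.01e-06, edgeR) and Brpf3 (0.25, adjusted p = 2.83e-04, edgeR). With the length and GC correction the direction of Brpf3 turned, to -0.14 (adjusted p = 0.0129, edgeR).

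Among the partners of Kat8, 3 of 11 MSL and NSL genes were higher and 3 lower, with Msl2 (-0.74, adjusted p = 4.49e-10, edgeR), Phf20 (-0.56, adjusted p = 2.55e-09, edgeR) and Ogt, the O-GlcNAc transferase (0.36, adjusted p = 7.85e-06, edgeR). Partners of CBP and p300 were split 3 to 4 of 12: the transcription factor Mef2a (-0.76, adjusted p = 1.34e-10, edgeR) and Cited2, which binds the same CBP/p300 surface as other factors (-1.20, adjusted p = 8.29e-09, edgeR), were lower and the CREB coactivator Crtc2 was higher (0.63, adjusted p = 1.20e-07, edgeR). Of 11 further acetyltransferases 2 were higher and 4 lower, with Ncoa1 (-0.49, adjusted p = 3.46e-08, edgeR), Naa40 (0.80, adjusted p = 9.75e-08, edgeR) and Ncoa3 (0.58, adjusted p = 1.49e-07, edgeR). Brd2 was lower (-0.55, adjusted p = 2.10e-09, edgeR), and Brd3 was higher (0.31, adjusted p = 3.35e-05, edgeR). The acetyl-CoA enzymes Dlat (-0.72, adjusted p = 9.56e-10, edgeR) and Pdhb (-0.42, adjusted p = 2.95e-07, edgeR) of the pyruvate dehydrogenase complex were lower and the ATP citrate lyase Acly was higher (0.36, adjusted p = 2.34e-07, edgeR), with 1 of 6 called higher and 3 lower. With length and GC content corrected Brd3 (0.19) and Acly (0.22) were under the fold minimum.

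**Figure D5:**
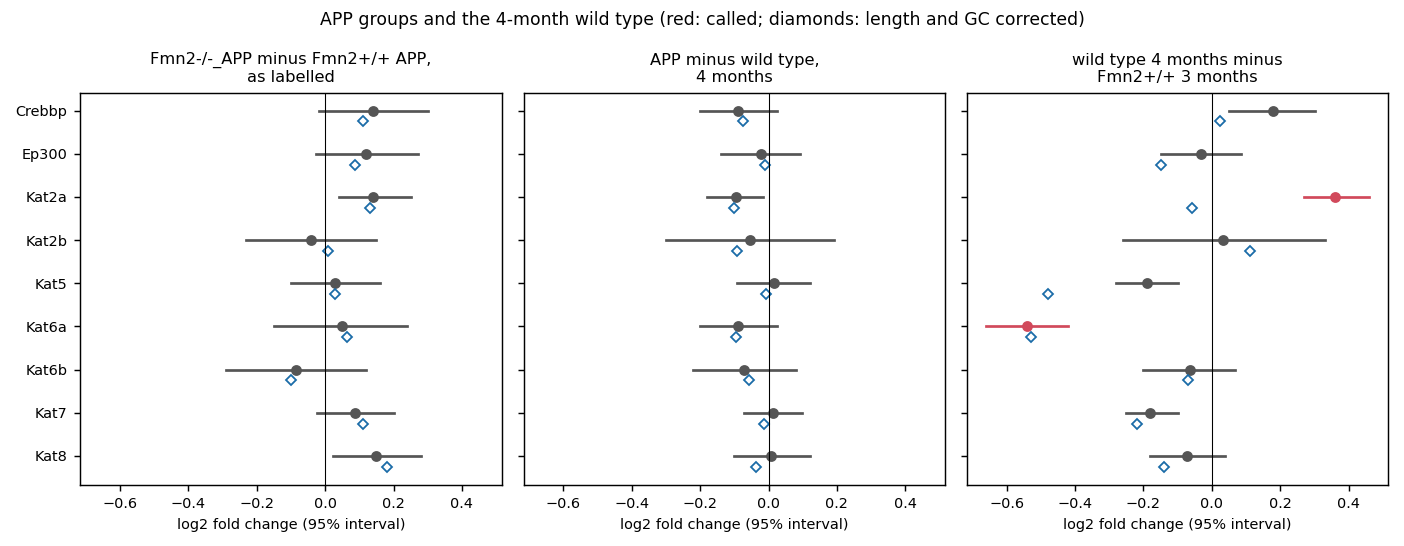
Log2 fold changes of the 9 genes (x axis, points with 95% intervals, red where called) in the cross by label, in APP against wild-type mice of 4 months, and in wild-type mice of 4 months against Fmn2+/+ mice of 3 months; open diamonds are corrected for exon length and GC content. The first 2 panels stay within -0.30 and 0.30, and in the third Kat6a keeps its place (-0.54 and -0.53) while Kat2a moves from 0.36 to -0.057.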

How the data were processed

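mRNA-seq (TruSeq RNA v2 kit) covered 48 runs of 46 mice. The authors aligned reads to mm10 with STAR and counted them per gene with HTSeq, and the deposited values are these raw counts. Both runs of each mouse sequenced more than once were summed. Symbols, positions, exon lengths and the GC content of the longest transcript came from GENCODE vM21 (GRCm38), which matched 48349 of 48709 identifiers. The 9 genes and all lists were chosen with earlier results of these data known.

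Each comparison was fitted on its own mice, grouped by label, with edgeR 4.0.16 in R 4.3.3 (TMM, filterByExpr with its minimum count of 10, quasi-likelihood test, Benjamini-Hochberg adjustment over all genes tested). Calls needed an adjusted p under 0.05 and a log2 fold change of 0.25, or 0.5 in the APP comparisons. Intervals cover 95%. Levels are CPM with TMM over all mice, and likeness was computed on group means of log2(CPM + 0.5). Named genes are the 9, Fmn2, up to 3 called genes of each other list per comparison with the smallest adjusted p, and for each member the gene with the highest r (mean CPM of at least 5, range at least 0.5 of the member's). Alternatives were DESeq2 1.42.0, RLE normalization, no low-count filter, no fold minimum, offsets for length and GC content (splines with 5 degrees of freedom), the replicate number as a block, lane, and leaving out each mouse. Scripts were tested on simulated data. P-values measure the spread between mice. Total counts of 6818809 to 43921030 per mouse set the precision, with the shallowest libraries at 8 months. A result on 1 gene of the lists is not reported here.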

Additional observations from a re-analysis of the deposited data

Results flagged for a closer look

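In 63 sets of 4 to 10 mice (9 genes in 7 groups), 5 held a mouse that stood apart by Dixon's criterion, which chance passes in about 1 of 20 sets. Kat2a in Fmn2-/- mice of 8 months was 65.6 CPM in replicate 2 and at most 59.4 in the others, and this mouse had summed choroid plexus markers of 607.7 CPM. Replicate 3, the library that differed least from it, had nearly as much (579.2) and a Kat2a of 57.5. Kat2b in wild-type mice of 4 months was 21.6 CPM in replicate 3 with the next at 15.4, and this mouse had the highest summed oligodendrocyte markers of the 6 (6205.2 CPM). Replicate 8 of the mice labelled FMN2 +/+ APP was high for Kat6a (96.3 CPM, next 76.4) and for Kat6b (101.4, next 76.3). Its summed interneuron markers were the lowest of the 9 (393.2 CPM) and its granule cell markers the highest (1495.6). Kat8 in mice labelled FMN2-/-_APP was 29.5 CPM in replicate 2 with the next at 25.7. The part of these markers in the values was not tested.

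The effect of Fmn2 loss differed between 3 and 8 months by the test of the difference itself for Kat8 (-0.39 on the log2 scale, adjusted p = 0.0448, edgeR; -0.28 and 0.174 after correction for length and GC content) and, among the other lists, for Vps72 (-0.57, adjusted p = 0.0267, edgeR; -0.63 and 0.0573 after that correction). With the replicate number as a block 0 genes of all were called in this test.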

How the results depend on the processing

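Of 1413 values of the 9 genes under alternatives, most had no call in the main fit. Direction and side of the threshold were kept by 1223, and those without a call moved by no more than their error. Another 115 values without a call moved by more or changed sign, 60 lost and 13 gained a call. All 60 losses were of the calls in the interaction and in the 2 age comparisons. The 2 called values that turned were of Kat2a in wild types of 4 months against Fmn2+/+ mice of 3 months. They went from 0.36 to -0.057 with length and GC correction and -0.049 with the replicate block added. In all, 69 values differed in sign. For the interaction of age and genotype (1 member called), DESeq2 called 2, and 0 were called without the low-count filter, with length and GC correction, with the replicate block, with the block and that correction, with lane as covariate, or with replicates 2 and 3 summed. With age in Fmn2+/+ mice (3 called), RLE normalization and length and GC correction left 1 each, and the replicate block left 0 with or without the correction. With age in Fmn2-/- mice (1 called), 2 passed without a fold minimum, and 0 with length and GC correction, the replicate block, or both. In wild types of 4 months against Fmn2+/+ mice of 3 months (2 called), 5 passed without a fold minimum. Without 1 mouse at a time, members called ran from 0 to 2 for genotype at 8 months, 0 to 3 for the interaction, 0 to 4 for age in Fmn2+/+ mice, 0 to 1 for age in Fmn2-/- mice, and stayed at 0, 0, 0 and 2 for the other comparisons. The cause of these changes was not tested. The labels do not say whether replicate numbers pair the mice, and 3 to 7 pairs per comparison are too few to exclude it. Same-numbered mice had correlated deviations (r above 0.1) in 1 of 4 pairs for genotype at 3 months, 0 of 3 at 8 months, 1 of 3 and 2 of 4 for age in Fmn2+/+ and Fmn2-/- mice, 4 of 7 in the cross, 2 of 6 for APP and 1 of 5 for the last comparison, never in every pair. In the cross their mean r was 0.107, against -0.0129 for mice with different numbers.

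Over all genes, calls for Fmn2 loss went from 5 to between 2 (replicate block) and 90 (DESeq2) at 3 months, from 166 to between 3 (lane) and 1124 (no low-count filter) at 8 months, and for the interaction from 635 to between 0 (replicate block) and 1414 (DESeq2). For age they went from 977 to between 73 and 1732 in Fmn2+/+ and from 1002 to between 14 and 1364 in Fmn2-/- mice, the lowest with block and correction. In the cross the range was 111 to 357 (129), for APP 370 to 637 (392). The share of calls that were higher was 37.0% by DESeq2 against 22.3% by edgeR at 8 months, 36.8% against 19.7% for the interaction, 49.0% against 65.2% for age in Fmn2+/+ mice and 43.1% against 56.6% in the cross. At 3 months it was 66.7% with RLE against 80.0%, of only 3 and 5 calls. Lane could not be fitted for age and was not run for the 4-month comparisons.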
